A study of Mus musculus with 8 samples.

Results

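The respiratory chain and the ATP synthase were described here through the genes that encode their subunits and the assembly factors named with them. Genes were taken by name: the Nduf, Uqcr, Cox4 to Cox8 and Atp5 families, the 4 Sdh genes and the mitochondrially encoded mt-Nd, mt-Co, mt-Cytb and mt-Atp genes, with pseudogenes named as such left out. This gave 106 members of 52636 genes, of which 93 lie in the nuclear genome and 13 in the mitochondrial genome. Complex I supplied 36 nuclear subunits and 9 nuclear assembly factors, complex II 4 subunits, complex III 8, complex IV 19 and the ATP synthase, complex V, 15. Atp5s, a factor associated with the ATP synthase, and Cox7a2l, a factor of respiratory supercomplexes, made up the rest of the nuclear members.

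In mitochondria, complexes I and II pass electrons from NADH and succinate to ubiquinone, complex III passes them on to cytochrome c, and complex IV passes them to oxygen. Complexes I, III and IV pump protons across the inner membrane, and complex V uses the resulting gradient to make ATP. Complex II is encoded by nuclear genes alone, whereas the other complexes combine subunits from both genomes. Heart and brown fat are rich in mitochondria, and some complex IV subunits have forms restricted to heart, muscle, lung or testis.

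The cells were cADSC, adherent stromal cells grown from the stromal vascular fraction of mouse cardiac adipose tissue. The 4 groups were WT untreated, WT given 100 µM UTP daily for 7 days, and the same pair from mice labelled P2Y2 KO, P2ry2 being the gene of a UTP receptor. Each group held 2 libraries, and each library was made from RNA of 2 cultures that had been pooled. The labels give the strain as C57BL/6J throughout, the study describes the KO line as CD1/C57BL/6J, and the mice were 12 to 16 weeks old, of both sexes used at random. Strain background and genotype cannot be told apart here. As cultures were pooled before sequencing, p-values measure the spread between pools, and in such bulk RNA a change in the share of one cell type cannot be told apart from a change in RNA per cell.

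Deposited values were gene counts scaled to a common total, so that every library summed to between 20008555 and 20015454, and CPM denotes scaled counts per 1000000 of the library total. P2ry2 was still read in the libraries labelled KO, where it ranged from 274 to 311 scaled counts, against 328 to 362 in the WT libraries. The stromal list summed to between 12328 and 17124 CPM, with all 12 of its genes found. The 5 brown fat markers summed to between 4.20 and 8.30 CPM, and 2 of them reached the minimum level for testing. Among these 5, Ucp1 was at 0 in 7 of the 8 libraries, and 1 marker, Cidea, was at 0 in every library. The first untreated WT pool stood apart: it had 0 reads of 4 Y-linked genes, against 1227 to 3974 elsewhere, and the highest Xist value of 9051 scaled counts. Both first KO pools had nearly no Xist (2 and 3 scaled counts), and the Y-linked sum was 2100 to 3974 in the 4 KO libraries against 0 to 1701 in WT, with Xist at 2 to 4418 against 4823 to 9051. The groups of Y-linked and Xist values did not overlap between genotypes, so the sex composition of the pools and genotype cannot be told apart. Within WT they did not overlap between treatments either. The Y-linked sum was 0 and 1227 untreated against 1701 and 1700 with UTP, and Xist was 9051 and 4974 against 4823 and 4833. For UTP in WT, sex composition and treatment therefore cannot be told apart. Macrophage markers differed between groups more than any respiratory chain complex did: their 20 genes summed to 4296 and 3057 CPM in untreated WT, 1815 and 1740 in WT with UTP, 5555 and 4834 in untreated KO and 3712 and 3904 in KO with UTP. The 8 adipocyte markers, in the same order, summed to 165 and 176, 145 and 140, 247 and 426, and 222 and 374 CPM, and all 4 KO libraries were above all 4 WT libraries. What part this had in the results below was not tested.

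The sequences of several mitochondrial genes are shown first because they bear on which of the 13 mitochondrial members could be measured. A stretch of chromosome 1 on the minus strand carries copies of them (GRCm38, GENCODE M21). Below, mt-Co2 (chrM:7013-7132, plus strand) stands beside its copy Gm28661 (chr1:24615446-24615565, minus strand), and mt-Nd3 (chrM:9459-9578, plus strand) beside its copy Gm28438 (chr1:24613000-24613119, minus strand), each over its first 120 bases. Capitals mark a base that differs between a gene and its copy.
mt-Co2: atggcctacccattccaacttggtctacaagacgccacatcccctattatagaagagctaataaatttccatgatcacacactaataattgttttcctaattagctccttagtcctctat
Gm28661: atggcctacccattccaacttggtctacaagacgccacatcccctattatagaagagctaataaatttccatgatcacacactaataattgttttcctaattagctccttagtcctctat
mt-Nd3: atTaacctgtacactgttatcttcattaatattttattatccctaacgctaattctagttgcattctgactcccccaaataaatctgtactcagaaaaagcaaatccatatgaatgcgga
Gm28438: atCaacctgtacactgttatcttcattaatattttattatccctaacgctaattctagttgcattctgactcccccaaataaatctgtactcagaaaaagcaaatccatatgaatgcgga

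Over the bases that the copies hold, 0 of 681 differed between mt-Co2 and its copy. The same held for 678 bases of mt-Atp6, 783 of mt-Co3, 294 of mt-Nd4l and the first 876 of the 1378 bases of mt-Nd4. Of 345 bases of mt-Nd3, 1 differed (T3C, counted from the gene's 5′ end), and of the 492 bases of mt-Co1 that its copy Gm29216 holds, 6 differed. A read that lies wholly within an identical stretch maps equally well to both places.

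Mitochondrial genes with a nearly complete copy had few counts. In 100-base windows, the read length used, 97.6% of mt-Nd3, 98.5% of mt-Nd4l, 99.5% of mt-Co2 and of mt-Atp6 and 99.9% of mt-Co3 occurred letter for letter in another annotated gene. Every one of these 5 genes had 59 scaled counts or fewer in every library. This did not hold for the nuclear member Atp5g2. It had 100% of its windows shared with genes such as Gm10175 and Gm10231, but 858 to 1120 scaled counts. mt-Co2, which encodes the complex IV subunit that takes electrons from cytochrome c, had 8 and 5 scaled counts in untreated WT, 4 and 9 in WT with UTP, 10 and 16 in untreated KO and 18 and 19 in KO with UTP. These values describe the few reads that could be placed and give no level of the subunit's RNA. mt-Atp8 had 0 to 4 scaled counts and no shared window. Its place in the nuclear stretch would fall between the copy of mt-Atp6, which ends at 24614651, and that of mt-Co2, which starts at 24614885, where no gene is annotated, and no genome sequence was used to look there.

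The other 7 mitochondrial members carried nearly all mitochondrial reads. mt-Co1, the catalytic subunit of complex IV, had the highest level of any member, at 1449 CPM per kb of transcript, averaged over the 8 libraries. It had 47050 and 40971 scaled counts in untreated WT, 40402 and 41231 in WT with UTP, 48226 and 48156 in untreated KO and 44026 and 48350 in KO with UTP. Its first untreated WT pool lay within the range of the KO libraries, so the genotypes overlapped. mt-Nd4, a proton-pumping subunit of complex I for which 60.8% of windows were shared, was the lowest of these 7 at 332 CPM per kb.

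mt-Cytb, the cytochrome b of complex III, ranged from 23271 to 26934 scaled counts. Of the other membrane subunits of complex I, mt-Nd1 ranged from 14363 to 18658, mt-Nd2 from 7100 to 9517 and mt-Nd5 from 17069 to 20606. mt-Nd6, on the opposite strand of the mitochondrial genome, ranged from 5199 to 6774, and whether counting used strand is not given in the sources used here. The first untreated WT pool was the highest library for mt-Cytb, mt-Nd1, mt-Nd2 and mt-Nd6.

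**Figure D1:**
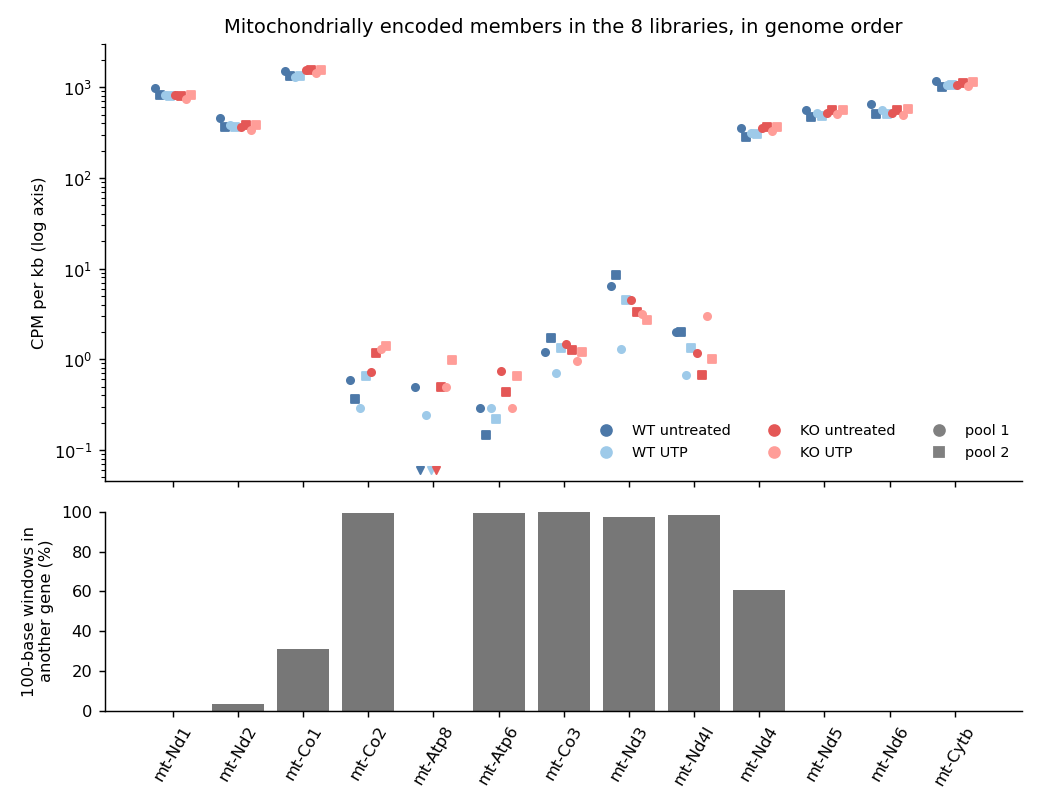
Upper panel: CPM per kb of transcript (log axis) of the 13 mitochondrially encoded members in mitochondrial genome order, 1 point per library, coloured by group, with circles for first and squares for second pools; triangles at the lower edge mark libraries at 0. Lower panel: the percentage of each gene's 100-base windows found letter for letter in another annotated gene. The 5 genes above 97% and mt-Atp8 lie far below the other 7, of which mt-Nd4 is the lowest at 332 CPM per kb on average.

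Among nuclear members, levels per length differed between and within complexes. Of the ATP synthase subunits, Atp5b, the catalytic beta subunit, was highest at 397 CPM per kb and Atp5l, a membrane subunit, lowest at 67.7, where 69% of the windows of Atp5l were shared with copies such as Gm10221. In complex IV, Cox4i1 was highest at 271 CPM per kb. In complex III the range ran from Uqcrfs1, the Rieske iron-sulfur protein, at 44.4 to Uqcrh, the hinge protein, at 160. In complex I it ran from Ndufb4 at 9.60, with 33.4% of windows shared with Ndufb4c, to Ndufa7 at 105. In complex II it ran from Sdhc, a membrane anchor, at 29.9 to Sdha, the flavoprotein that oxidises succinate, at 85.3. Assembly factors of complex I were lower, with a median of 6.92 CPM per kb for 9 genes against 48.5 for the 36 subunits, and Ndufaf6 the lowest and Ndufaf7 the highest at 2.77 and 21.7.

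The tissue-restricted isoforms were at a small fraction of their widespread partners. Of the summed CPM per kb of each pair, Cox4i2, the lung form, made up 0.436% beside Cox4i1, Cox6a2 0.660% beside Cox6a1 and Cox7a1 1.61% beside Cox7a2, the last pair of restricted forms being those of heart and skeletal muscle. Cox8b, another heart and muscle form, made up 0.0767% beside Cox8a. Of the testis forms, Cox6b2 reached 5.08% beside Cox6b1, with 97 to 128 scaled counts per library, whereas Cox7b2 had 0 to 2 scaled counts beside Cox7b and Cox8c had 1 scaled count in 1 library. Where a library had 0 scaled counts, the level could still be as high as 0.15 CPM from counting error alone. Ndufa4l2, a paralog of the complex IV subunit Ndufa4 known as a hypoxia-induced gene, made up 0.699% beside Ndufa4. In these cultures complex IV RNA was almost wholly that of the widespread isoforms in all 4 groups. Cox7b2, Cox8b, Cox8c, mt-Atp6 and mt-Atp8 did not reach 0.5 CPM in 2 libraries and were not tested, which left 101 members, 90 nuclear and 11 mitochondrial.

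Sums over the nuclear members were nearly constant. They amounted to 6236 and 6459 CPM in untreated WT, 6372 and 6469 in WT with UTP, 6469 and 6455 in untreated KO and 6482 and 6436 in KO with UTP, and the highest library exceeded the lowest 1.04-fold. The lowest value was that of the first untreated WT pool. By complex, the highest library exceeded the lowest between 1.04-fold for complexes II and V and 1.09-fold for complex III. For complex IV the 4 KO libraries, at 983 to 1004 CPM, did not overlap the 4 WT libraries, at 937 to 960. For complex II they lay at 506 to 512 against 493 to 501. These sums were not tested.

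The mitochondrial sum varied more, between 5886 and 6956 CPM, or 1.18-fold, and both extremes belonged to untreated WT. Of this sum, 5881 to 6951 CPM came from the 7 members that carried nearly all mitochondrial reads. Few reads of the other members could be placed, so neither the sum nor the ratio below gives the full level of mitochondrially encoded RNA. The ratio of mitochondrially to nuclear encoded scaled counts was 1.12 and 0.911 in untreated WT, 0.956 and 0.927 in WT with UTP, 1.00 and 1.03 in untreated KO and 0.942 and 1.05 in KO with UTP. Untreated WT averaged 1.01 ± 0.144 (SD, n = 2) and WT with UTP 0.942 ± 0.0201, so the pools of 1 group spanned more than the groups differed by.

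**Figure D2:**
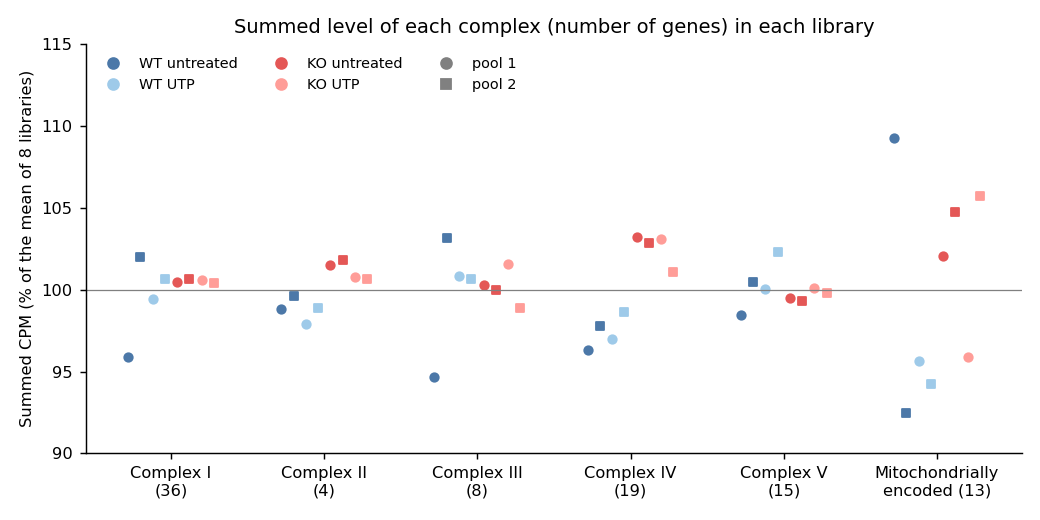
Summed CPM of the nuclear subunits of each complex, and of the 13 mitochondrially encoded members, in each of the 8 libraries, as a percentage of the mean of the 8 libraries; colours give the group, circles first pools and squares second pools, and the vertical axis starts at 90%. The highest library exceeds the lowest by between 1.04 and 1.09-fold for the nuclear sums and 1.18-fold for the mitochondrial sum. The KO libraries lie above the WT libraries for complexes II and IV, where 33.1% of all genes tested singly do not overlap between genotypes.

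Gene by gene, the nuclear members varied less than all genes above the same minimum level, though levels above that minimum were not matched. Counting error adds more to the spread at low counts, and its part in this difference was not tested. Of 80 nuclear members at a mean of 10 CPM or more, 50, or 62.5%, had a highest library less than 1.2 times the lowest, against 27.2% of the 10625 genes at that level. Their median coefficient of variation over the 8 libraries was 4.97%, against 8.84%. The exception above 2-fold was Uqcrq, a small complex III subunit, with 528 and 852 scaled counts in untreated WT, 901 and 876 in WT with UTP, 1007 and 900 in untreated KO and 1069 and 948 in KO with UTP. Its first untreated WT pool was far below the other 7 libraries, which overlapped. Of the 80 members, 31 were lowest in that pool, more than in any other library.

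The first comparison asked whether UTP changed the respiratory chain in WT cells. No member passed the test: in edgeR's quasi-likelihood test, adjusted by the Benjamini-Hochberg method over the 17529 genes tested, 0 of 101 members were called at an adjusted p under 0.05, where 1.22% of all genes tested were called. DESeq2 called 0 as well. At an unadjusted p under 0.05 there were 12 members (11.9%), 8 higher and 4 lower, against 17.7% of all genes (8.67% higher and 9.07% lower). The median log2 fold change was 0.017 over nuclear members, -0.13 over mitochondrial members and 0.0061 over all genes tested. For 86 of the 101 members the 95% interval of the log2 fold change lay within 0.5 of 0 on both sides. Larger changes lay outside the interval for those members. Among all genes tested 56.7% had such an interval, but intervals are wider at low counts and the shares were not matched for level. Of the 5 tissue-restricted isoforms tested, 1 had such an interval.

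The 5 members of lowest p did not pass. Cox6a1, a nuclear subunit of complex IV, stood at 1571 and 1767 scaled counts without UTP and at 1949 and 1939 with it. The treated pools were both above the untreated pools, with a log2 fold change of 0.22 ± 0.06 (SE) and an edgeR adjusted p of 0.125. Atp5d, the delta subunit of the ATP synthase, had 1635 and 1878 against 2058 and 2037, and Ndufa13, a complex I subunit also known as GRIM-19, 1136 and 1289 against 1412 and 1389. In both, as in Cox6a1, the first untreated pool was the lowest of the 4 and the second lay nearer the treated pools. With an offset for GC content fitted in each library, the log2 fold changes were 0.08 for Cox6a1, 0.04 for Atp5d and 0.04 for Ndufa13, with edgeR adjusted p of 0.412, 0.693 and 0.750.

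Ndufa10, a complex I accessory subunit, was 1650 and 1545 untreated and 1409 and 1370 with UTP, at a log2 fold change of -0.20 ± 0.06 and an edgeR adjusted p of 0.168. mt-Nd3 was 45 and 59 against 9 and 31, with a log2 fold change of -1.37 ± 0.43 and an edgeR adjusted p of 0.172, from the small set of reads that could be placed. With no minimum on counts the call of mt-Nd3 passed, at 0.0141, and its adjusted p ranged from there to 0.543 over all alternatives. Leaving out the second untreated WT pool, so that the first stood alone for its group, gave 10 members called (8 higher, 2 lower), where 13.8% of all genes were then called, and Cox6a1, Atp5d, Ndufa13 and Ndufa10 were among them.

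For UTP in KO cells, by edgeR 0 of 101 members were called, where 0.0342% of all genes tested were called, and 0 of 101 reached an unadjusted p under 0.05, against 7.56% of all genes. DESeq2 called 0. The median log2 fold change over nuclear members was -0.0028, beside 0.0031 over all genes tested. An interval within 0.5 of 0 was found for 88 members, against 61.9% of all genes, again not matched for level. The lowest p belonged to Ndufa1, a small complex I subunit, with 624 and 579 scaled counts before and 666 and 662 under UTP, at a log2 fold change of 0.15 ± 0.07 and an edgeR adjusted p of 0.670. Both treated pools were above the untreated pools.

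Ndufs4, an accessory subunit of the electron input arm of complex I, was 836 and 893 against 963 and 938, Ndufaf5, a complex I assembly factor, 122 and 110 against 135 and 141, and Ndufa4l2 31 and 42 against 46 and 61. mt-Nd4l, at 7 and 4 against 18 and 6, rested on few reads. None of these 5 passed, and the edgeR adjusted p was 0.670 or more for each.

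The difference between the responses of WT and KO cells was tested as an interaction. By edgeR 0 of 101 members passed, as did 0 of all genes tested (0% called), and DESeq2 called 0 members. At an unadjusted p under 0.05 there were 4 members, 1 higher and 3 lower, or 3.96%, against 5.26% of all genes (2.68% higher and 2.58% lower). The members of lowest p were Ndufaf8, an assembly factor of complex I, at a difference in log2 fold change of -0.83 ± 0.29, Uqcr10, a small complex III subunit, at -0.33 ± 0.13, mt-Nd4l at 2.10 ± 0.85, Cox6a1 at -0.20 ± 0.08 and Ndufs4 at 0.21 ± 0.09. The edgeR adjusted p was 0.837 for each. A response to UTP that depended on genotype was thus not detected. The intervals of 79 members excluded a difference larger than 0.5, against 46.6% of all genes tested, which were not matched for level.

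**Figure D3:**
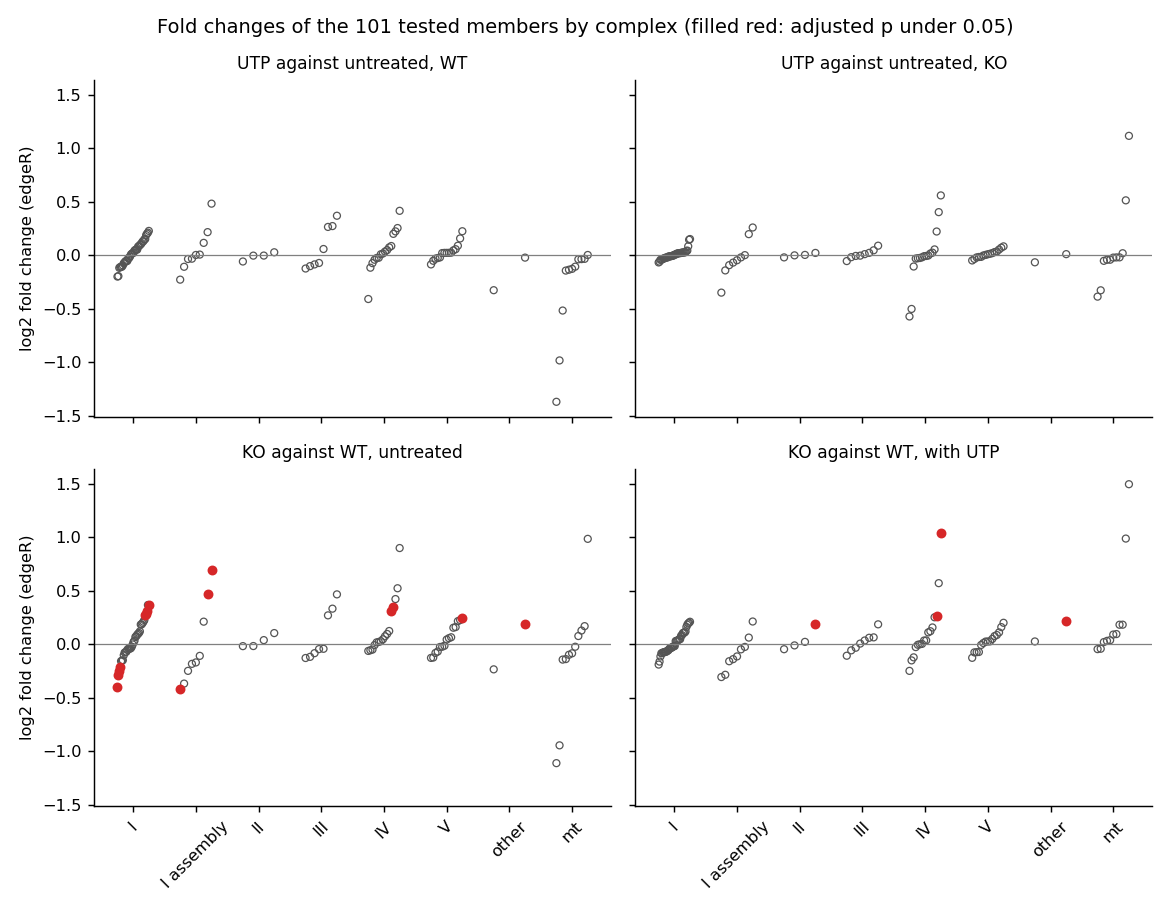
Log2 fold change of the 101 tested members in 4 comparisons, grouped by complex along the horizontal axis (mt: mitochondrially encoded; other: Atp5s and Cox7a2l) and sorted within each; filled red points have an edgeR adjusted p under 0.05, open points do not. No point is filled for UTP in either genotype, 15 are filled for KO against WT untreated and 4 with UTP.

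Members were called between the genotypes. Between libraries labelled KO and WT without UTP, 15 of 101 members (14.9%) passed, 10 higher and 5 lower, where 20.7% of all genes tested were called, 10.5% higher and 10.2% lower. The share of members called was thus below that of all genes. The calls were spread over complex I (4 higher and 4 lower of 36 subunits), its assembly factors (2 higher, 1 lower of 9), complex IV (2 higher of 16 tested), complex V (1 higher of 15) and Cox7a2l. For the nuclear subunits of complexes II and III the count was 0 of 12. The median log2 fold change was 0.022 over nuclear members and 0.016 over all genes tested. Markers of other cells moved in the same comparisons. Of 7 adipocyte markers tested, 7 were higher in KO, with a median log2 fold change of 1.23 untreated and 1.13 with UTP, and 4 and 5 of them were called by edgeR. Of the 20 macrophage markers, 5 were called untreated and 16 with UTP, each higher, and of the 7 endothelial markers 4 and 2 were called. Of the 12 stromal markers 6 and 4 were called, and of the 7 mural markers 2 and 1. Beside these counts, 20.7% of all genes tested were called untreated and 17.4% with UTP. Their part in the members' calls was not tested.

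Cox8a, a nuclear subunit of complex IV, was called both without and with UTP. It had 1305 and 1302 scaled counts in untreated WT, 1346 and 1392 in WT with UTP, 1761 and 1554 in untreated KO and 1635 and 1644 in KO with UTP. All 4 KO libraries were above all 4 WT libraries, with a gap wider than the range of the WT values. The log2 fold change was 0.34 ± 0.06 untreated (edgeR adjusted p = 0.0103) and 0.26 ± 0.06 with UTP (edgeR adjusted p = 0.0254).

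Cox7a2l, the factor of respiratory supercomplexes, was the other member called with and without UTP. It had 2051 and 1980 scaled counts in untreated WT, 2004 and 1959 in WT with UTP, 2319 and 2283 in untreated KO and 2262 and 2345 in KO with UTP. The genotypes did not overlap and the pools of each group lay close together. The log2 fold change was 0.19 ± 0.05 untreated (edgeR adjusted p = 0.0401) and 0.22 ± 0.05 with UTP (edgeR adjusted p = 0.0252), and 11.7% of its windows were shared with Gm6969. These 2 genotype comparisons had no library in common but shared 1 estimate of the spread.

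Cox6a1 was 2109 and 2034 scaled counts in untreated KO and 2134 and 2054 in KO with UTP, above the 1571 to 1949 of the WT libraries, with a log2 fold change of 0.31 ± 0.06 untreated (edgeR adjusted p = 0.0118). Ndufa13 was 1543 to 1597 in KO and 1136 to 1412 in WT, at 0.37 ± 0.06 untreated (edgeR adjusted p = 0.00808), and 24% of its windows overlap Tssk6. Both genes were also lowest in the untreated WT pools, so the genotypes lay closer with UTP, at 0.11 and 0.18 with edgeR adjusted p of 0.239 and 0.0797.

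Ndufv3, a small subunit of the NADH-oxidising part of complex I, was 1128 to 1207 scaled counts in KO and 949 to 1025 in WT, at 0.29 ± 0.06 untreated (edgeR adjusted p = 0.0140). Ndufa2 (0.27), Ndufa6 (0.31), Atp5d (0.25) and the assembly factors Ndufaf3 (0.47) and Ndufaf8 (0.69) completed the members that rose, with edgeR adjusted p between 0.0231 and 0.0476.

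Of the 5 that fell, Ndufs1, which carries iron-sulfur clusters of complex I, had 2167 and 2291 scaled counts in untreated WT, 2091 and 2037 in WT with UTP, 1887 and 1871 in untreated KO and 1792 and 1887 in KO with UTP. The genotypes did not overlap, and untreated the log2 fold change was -0.25 ± 0.05 (edgeR adjusted p = 0.0179). Ndufa5 was 523 to 622 in WT and 440 to 472 in KO, at -0.40 ± 0.08 (edgeR adjusted p = 0.0133). Ndufs4 was 982 to 1092 in WT and 836 to 963 in KO, at -0.29 ± 0.07 (edgeR adjusted p = 0.0201). Ndufaf5 (-0.42) and Ndufa10 (-0.22) passed at 0.0425 and 0.0430.

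With UTP, 4 of 101 members (3.96%) were called between KO and WT, all 4 higher, where 17.4% of all genes tested were called, 9.52% higher. Besides Cox8a and Cox7a2l these were Sdhc and Ndufa4l2. Sdhc, a membrane anchor of complex II, was 1955 to 2016 scaled counts in KO and 1741 to 1875 in WT, with a log2 fold change of 0.18 ± 0.05 with UTP (edgeR adjusted p = 0.0452). Ndufa4l2 was low in every library, with 20 and 19 in untreated WT, 29 and 23 in WT with UTP, 31 and 42 in untreated KO and 46 and 61 in KO with UTP. Every KO library was above every WT library, with a log2 fold change of 1.04 ± 0.26 with UTP (edgeR adjusted p = 0.0296) and 0.90 ± 0.29 untreated (edgeR adjusted p = 0.0589). Ndufv3, next by p, had 0.19 ± 0.06 and did not pass (edgeR adjusted p = 0.0534).

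Of the 15 members called untreated, 14 had the same sign with UTP, and in 14 the difference was smaller there. Ndufaf8 changed sign, from 0.69 to -0.14. In all, 29 of the 101 members (28.7%) had 4 KO libraries that did not overlap the 4 WT libraries, against 33.1% of all genes tested. Among those that passed no test were Cox4i1, with 4052 to 4294 scaled counts in KO and 3802 to 3927 in WT, and Atp5b, with 14516 to 15086 in KO and 15430 to 16035 in WT.

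**Figure D4:**
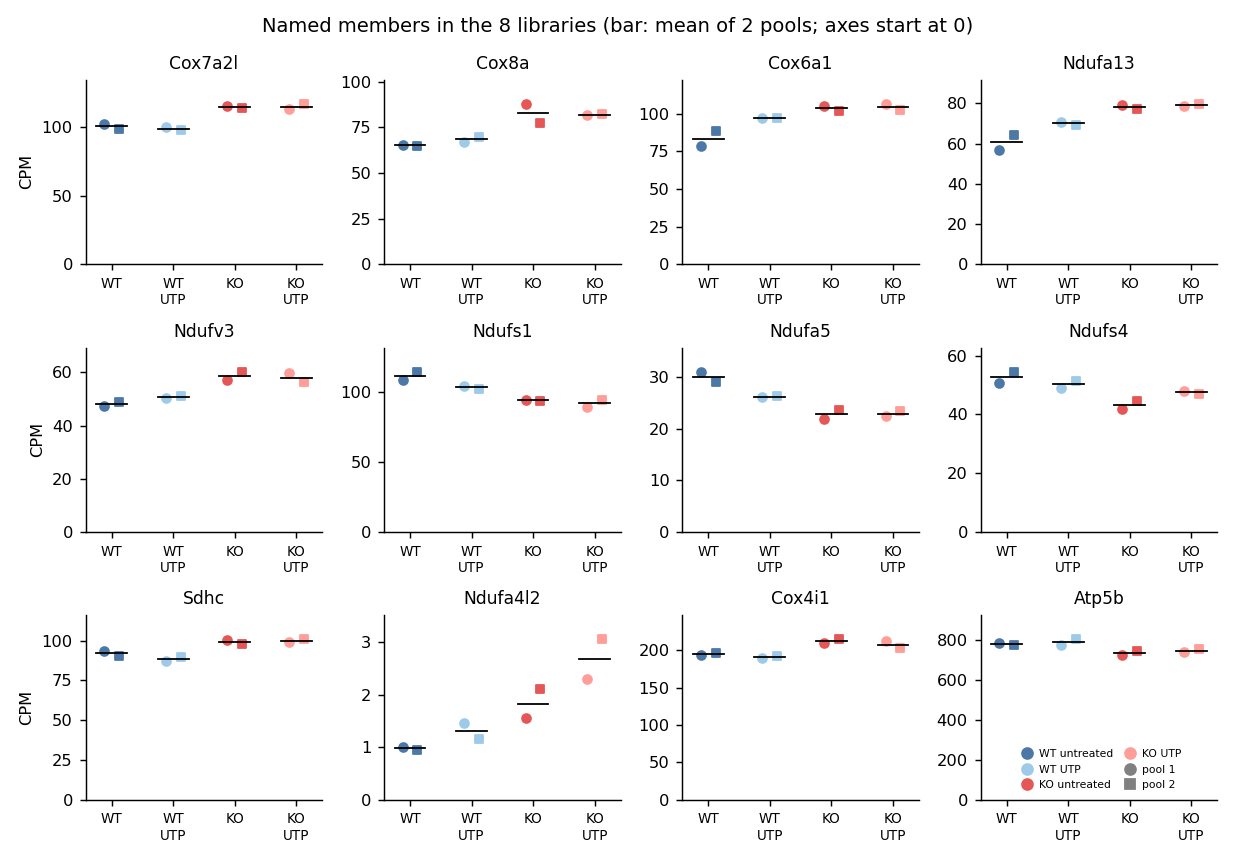
CPM of 12 named members in the 8 libraries, with groups along the horizontal axis, circles for first pools, squares for second pools and a bar at the mean of 2 pools; every vertical axis starts at 0. Cox7a2l, Cox8a, Sdhc and Ndufa4l2 are higher and Ndufs1 and Ndufa5 lower in all 4 KO libraries than in the 4 WT libraries, while Cox6a1 and Ndufa13 also lie lowest in the untreated WT pools.

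Of the catalytic core, as the naming rule listed it, 1 gene, Ndufs1, was called. The others (Ndufv1, which binds NADH, Sdha, Sdhb, Uqcrc1, Uqcrfs1, Cox5a, and the alpha and beta subunits of the ATP synthase, Atp5a1 and Atp5b) had log2 fold changes between -0.11 and 0.10 in both genotype comparisons and passed in neither by edgeR. Sdha, for example, had 4897 and 4923 scaled counts in untreated WT, 4913 and 4866 in WT with UTP, 5008 and 5093 in untreated KO and 4881 and 5022 in KO with UTP. Its genotypes overlapped, and its log2 fold change was 0.04 ± 0.05 untreated. With the GC offset Uqcrc1 was called untreated, at -0.19 (edgeR adjusted p = 0.0304). Other iron-sulfur subunits of complex I were chosen after their values were seen: Ndufs7 differed by 0.37 ± 0.12 untreated (edgeR adjusted p = 0.0686) and Ndufs8 by 0.21 ± 0.08 (edgeR adjusted p = 0.111).

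Of the 11 tested mitochondrial members, 0 passed in a genotype comparison by edgeR without the GC offset. mt-Co1 differed by 0.13 ± 0.09 untreated and 0.18 ± 0.09 with UTP on the log2 scale, and mt-Nd4 by 0.17 ± 0.11 and 0.18 ± 0.11. mt-Co2 differed by 1.49 ± 0.45 with UTP (edgeR adjusted p = 0.0547), from 4 and 9 scaled counts in WT to 18 and 19 in KO. Its chromosome 1 copy Gm28661 moved with it, at 4 to 9 scaled counts in WT and 12 to 21 in KO. With the GC offset, mt-Co1 was called in both comparisons (edgeR adjusted p = 0.0323 and 0.0342), mt-Nd4 untreated at 0.32 (0.0332) and mt-Co2 with UTP at 1.57 (0.0454), each higher in KO.

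The calls depended on single libraries. The counts that follow are given without the share of all genes called in each fit. They therefore do not show a change particular to the members. Leaving out each library in turn gave between 1 and 27 members called untreated: 1 when the first untreated KO pool was left out, 27 when the second pool of untreated WT was, 7 without either WT pool given UTP, 8 without the second untreated KO pool, 9 without the first untreated WT pool or the second KO pool given UTP, and 11 without the first KO pool given UTP. Ndufa13, Cox8a, Cox6a1, Ndufa5 and Ndufs4 lost the call only without the first untreated KO pool, with edgeR adjusted p of up to 0.137, and Ndufv3 only without the second, at 0.0695. Cox7a2l lost it in 7 of 8 cases, and Ndufaf5 in all 8. With UTP the count ran from 0 to 9, and was 0 without either WT pool given UTP or the second KO pool given UTP, 1 without the first KO pool given UTP, and 9 without either untreated WT pool. DESeq2 called 5 untreated, of which 4 (Ndufa13, Cox8a, Cox6a1 and Ndufa5) were among the 15, and 0 with UTP.

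Fold changes of the nuclear members were related to the base composition of their transcripts. Over 90 nuclear members, Pearson's r between the GC content of the transcript and the log2 fold change was 0.60 for UTP in WT, 0.03 for UTP in KO, 0.62 for KO against WT untreated and 0.34 with UTP. These are descriptions across genes, which share libraries and are not replicates. Pool 1 against pool 2 of untreated WT, which hold the same condition, gave -0.49 over 80 nuclear members and -0.26 over 10609 genes. Over the same 80 members, the pools gave 0.13 in WT with UTP, 0.38 in untreated KO and 0.26 in KO with UTP. Over the 10609 genes these values were 0.08, -0.02 and 0.04. The 10 members called higher untreated had a median GC content of 55.7%, the 5 called lower 47.2%, and all 90 nuclear members tested 51.8%.

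With an offset for GC content fitted in each library, 9 members were called untreated and 8 with UTP. The share of all genes called under the offset is not given here. Of the 15, 4 remained called (Cox7a2l, Ndufa2, Ndufa5 and Ndufv3), and all 15 kept their sign. Cox8a then had edgeR adjusted p of 0.152 untreated and 0.0783 with UTP, and the log2 fold change of Atp5d untreated was 0.01, against 0.25 without the offset. The log2 fold change of Cox8a went from 0.34 to 0.17 untreated and from 0.26 to 0.21 with UTP. Of the other calls lost, Ndufa10 went from -0.22 to -0.21, Ndufa6 from 0.31 to 0.28, Ndufaf8 from 0.69 to 0.62 and Ndufaf3 from 0.47 to 0.38, all untreated. Cox6a1 went from 0.31 to 0.13, Ndufa13 from 0.37 to 0.15, Ndufs1 from -0.25 to -0.15, Ndufs4 from -0.29 to -0.15 and Ndufaf5 from -0.42 to -0.32. Cox7a2l, Ndufv3, Sdhc and mt-Co1 were called in both genotype comparisons under the offset, with log2 fold changes of 0.24 and 0.26 for Cox7a2l and 0.28 and 0.26 for mt-Co1.

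**Figure D5:**
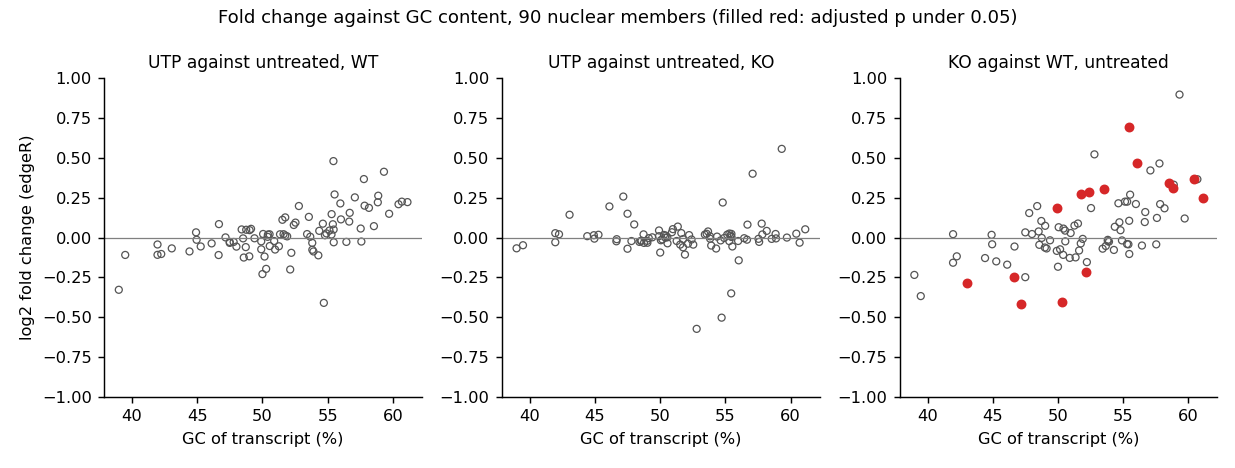
Log2 fold change against the GC content of the transcript (percent) for the 90 nuclear members tested, for UTP in WT, UTP in KO and KO against WT untreated; filled red points have an edgeR adjusted p under 0.05. Members of higher GC content lie higher for UTP in WT (r = 0.60) and for KO against WT (r = 0.62) but not for UTP in KO (r = 0.03).

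Promoters of nuclear members are known to hold sites for the factors NRF1, GABPA and YY1, and the promoters of 2 called complex IV genes are shown as an illustration. The sequences are RefSeq's (GRCm38.p6), from 250 bases before to 50 after the start, for Cox6a1 (chr5:115348909-115349208, minus strand) and Cox8a (chr19:7217567-7217866, minus strand). Capitals mark the motif CGCANGCGC of NRF1 on either strand in Cox6a1 and ACTTCCGG, the reverse complement of the GABPA motif CCGGAAGT, in Cox8a.
Cox6a1: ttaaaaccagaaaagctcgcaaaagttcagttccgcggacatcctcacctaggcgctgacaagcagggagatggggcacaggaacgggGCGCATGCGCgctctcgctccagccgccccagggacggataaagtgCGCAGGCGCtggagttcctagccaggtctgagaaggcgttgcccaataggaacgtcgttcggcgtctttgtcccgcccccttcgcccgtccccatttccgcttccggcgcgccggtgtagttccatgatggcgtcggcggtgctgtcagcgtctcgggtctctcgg
Cox8a: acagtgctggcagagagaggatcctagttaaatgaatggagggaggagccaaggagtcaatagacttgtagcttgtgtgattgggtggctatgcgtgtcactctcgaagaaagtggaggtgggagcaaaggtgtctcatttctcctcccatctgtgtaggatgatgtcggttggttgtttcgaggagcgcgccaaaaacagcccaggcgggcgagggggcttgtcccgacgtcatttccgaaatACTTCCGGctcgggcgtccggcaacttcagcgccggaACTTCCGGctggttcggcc

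The NRF1 motif can match on both strands at 1 place, and such overlapping matches were marked together. Searched on both strands, the NRF1 motif occurred in 33.7% of 83 promoters of the 77 nuclear members matched, against 6.31% of 32851 promoters of all genes. AAGATGGC, the YY1 motif, occurred in 15.7% against 2.75%, CCGGAAGT in 6.02% against 3.89%, and TCAAGGTCA, the motif of estrogen-related receptors, in 2.41% against 0.423%. Cox7a2l held none of the 4. Promoters of members and of all genes were not matched for base composition, and a gene with several promoters was counted for each. A match describes letters in a window and does not show that a factor binds there.

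Among 37 further assembly factors, 5 passed between untreated KO and WT, where 20.7% of all genes tested were called: Cox17 (0.37) and Coa4 (0.65), which assemble complex IV, rose, whereas Ttc19 (-0.25), Sdhaf1 (-0.38) and Tmem70 (-0.47), factors of complexes III, II and V, fell. With UTP, Coa4 (0.79) and Tmem126b (0.33), a complex I assembly factor, were the 2 of 37 that passed, where 17.4% of all genes were called. Of 20 genes of mitochondrial biogenesis, 2 passed untreated and 1 with UTP: Esrra, the estrogen-related receptor alpha, rose by 0.39 and Gabpb1 fell by 0.34 on the log2 scale untreated, and Gabpa fell by 0.26 with UTP. For UTP in either genotype 0 genes of these lists passed by edgeR.

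Ppargc1a, the coactivator of mitochondrial biogenesis, was at 9 to 25 scaled counts per library, Tfam, the mitochondrial transcription factor, at 524 to 622 and Nrf1 at 471 to 586. They passed in none of the 5 comparisons by edgeR. Cycs, which encodes cytochrome c, had 942 and 992 scaled counts in untreated WT, 831 and 826 in WT with UTP, 701 and 815 in untreated KO and 724 and 766 in KO with UTP. All KO libraries were below all WT libraries, with a log2 fold change of -0.35 ± 0.08 untreated (edgeR adjusted p = 0.0237) and -0.15 ± 0.09 with UTP (edgeR adjusted p = 0.266). Of the 16 genes of electron carriers, 2 passed in each genotype comparison, where 20.7% of all genes tested were called untreated and 17.4% with UTP. Besides Cycs, Coq3 fell by 0.36 untreated, and Sqor rose by 0.30 and Coq7 fell by 0.34 with UTP.

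Of 17 genes of the citric acid cycle, which feeds the chain with NADH and succinate, 2 passed untreated and 1 with UTP. Of all genes tested, 20.7% were called untreated and 17.4% with UTP. Idh3a fell by 0.27 and Sucla2 by 0.21 on the log2 scale untreated, and Idh3b rose by 0.19 with UTP. Of 12 hypoxia-response genes, 3 passed untreated, beside 20.7% of all genes: Car9 (0.63), Adm (0.29) and Slc2a1 (0.32) rose. With UTP 4 of 12 passed, beside 17.4% of all genes: Pdk1 (0.60), Bnip3 (0.39) and Slc2a1 (0.24) rose and Vegfa (-0.44) fell.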

How the data were processed

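RNA of 8 pools was sequenced as paired reads of 100 bases. Per the labels, the authors used Trimmomatic, STAR and HTSeq with GRCm38.p4 (mm10); versions and the strand setting are not given in the sources used here. The deposited values are estimated counts: whole numbers that follow from counts scaled by 1 factor per library to a common total and rounded up (the value 1 occurs in 0 genes in 2 libraries). This step is not stated in the sources used here, and the count depth before scaling was not worked out. They were used as scaled counts. Genes above 0.5 CPM in at least 2 of 8 libraries were fitted with edgeR 4.0.16 (R 4.3.3, TMM, quasi-likelihood, 1 model with 4 groups). Alternatives were DESeq2 1.42.0, limma 3.58.1, library size scaling, no minimum, 2 CPM, a replicate block, 1 genotype alone, each library left out and, chosen after seeing the data, an offset for GC content. GC content, length and shared windows came from GENCODE M21 transcripts. Scripts were tested on simulated data. Members, gene lists and tests were chosen with earlier results of these data known. Named were mitochondrial members, members past the threshold or, under 5 of those, the 5 of lowest p, restricted isoforms and partners, the catalytic core, and each complex's highest and lowest member per length.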

Additional observations from a re-analysis of the deposited data

How the results depend on the processing

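The count depth before scaling was not worked out, and 2 pools per group limit every call. Counts in this section are given without the share of all genes called in each fit. Members called for UTP in WT numbered 1 with no minimum and 0 to 10 with 1 library left out, and for the difference in response 0 to 1 (1 without the second untreated WT pool). For KO against WT untreated they numbered 5 by DESeq2, 9 with the GC offset and 1 to 27 with 1 library left out, and with UTP 0 by DESeq2, 8 with the GC offset and 0 to 9. With 1 library left out, the nuclear median log2 fold change ranged from -0.00637 to 0.0324 for UTP in WT and from -0.0259 to 0.0136 for the difference, and with no minimum it was 0.00311 for KO against WT untreated. The mitochondrial median ranged from -0.279 to 0.0429 for UTP in WT, -0.113 to 0.0528 for UTP in KO, -0.0661 to 0.231 for the difference and -0.137 to 0.104 for KO against WT untreated. With the GC offset it was -0.0149 for UTP in WT and 0.0713 for KO against WT untreated. The ratio of mitochondrial to nuclear counts was 0.643 without mt-Co1, mt-Atp6, mt-Atp8 and mt-Nd4l, of which mt-Co1 held nearly all counts. Of the settings tried for named members, 446 left direction and side of the threshold as they were, 112 lost a call and 9 gained one, and 0 turned a call round. The cause was not tested.

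Same-numbered pools did not deviate together in all pairs of groups (r of -0.21 to 0.45), and no label pairs them. With the replicate number as a block, 10 members were called untreated and 3 with UTP. For UTP in KO, the 5 members of lowest p had an edgeR adjusted p of 0.653 or more with the block.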

Other observations

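The 2 mitochondrial ribosomal RNAs, which no comparison above used, differed from each other. mt-Rnr2, the large subunit RNA, had 4462 and 4219 scaled counts in untreated WT, 4043 and 4046 in WT with UTP, 2823 and 2826 in untreated KO and 3138 and 3207 in KO with UTP. All 4 KO libraries were below all 4 WT libraries. mt-Rnr1, the small subunit RNA, had 1428 and 1266, 1156 and 1165, 1399 and 1331, and 1394 and 1387 in the same order, and its genotypes overlapped. Other chromosome 1 copies were also read more in KO: Gm28437, the copy of mt-Co3, had 4 to 9 scaled counts in WT and 14 to 21 in KO, whereas mt-Co3 itself had 11 to 27 and 15 to 23. Gm10925, the copy of mt-Atp6, had 3 to 11 in WT and 10 to 14 in KO. These genes were picked after their values were seen and were not tested.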
